A study of Homo sapiens with 16 samples.

Results

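The response of RPMI8226 myeloma cells to silencing of CD28 or CD86 was compared with the response of the same line carrying extra Mcl1, an anti-apoptotic protein of the BCL2 family. RPMI8226 is an established human multiple myeloma cell line, and the second background is RPMI8226 made to overexpress Mcl1 (the Mcl1 line below). Each background received the empty vector pLK0.1 or a hairpin RNA (shRNA) directed at the transcript of Gapdh, of CD28 or of CD86, with 1 mRNA-seq library for each of the 8 combinations among the 16 libraries of the series. Empty vector and Gapdh shRNA were the controls, and CD28 and CD86 shRNA the silenced arm, which gave 2 libraries against 2 in each background. A gene's change is the mean of the 2 silenced libraries minus the mean of the 2 controls on the log2(FPKM + 1) scale, where FPKM is fragments per kilobase of exon scaled to library size. On this scale, changes of genes at low levels come out too small. The members were the 6746 of 23459 genes with at least 5 FPKM in all 4 control libraries, with GAPDH left out because 1 control silences it. CCDC71, at 5.001 FPKM in its lowest control, was just inside that limit, and SNX29, at 4.9998 FPKM, was just outside it. Genes that were low in controls and came up on silencing could not enter: 194 genes outside the limit had at least 5 FPKM in all 4 silenced libraries.

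Several features limit the groups as models. The Mcl1 line is 1 derived line. The sources used here do not give the promoter or species of the Mcl1 construct, the protein level it reached, or the number and sequences of the hairpins. CD28 and CD86 shRNA target different genes and are not replicates of each other, so the spread within an arm also holds the differences between constructs. The labels name no separate cultures, so p-values cover no spread beyond that among these 8 libraries, which may be technical. In bulk RNA, fewer cells of a type and less RNA per cell cannot be told apart.

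CD28 is best known as the costimulatory receptor of T cells, and CD86 is one of its ligands. Myeloma cells can carry both, and the receptor then signals through PI3 kinase towards cell survival. MCL1 holds pro-apoptotic relatives such as BIM, BAK and NOXA in check at the mitochondrion, and myeloma cells commonly depend on it. The comparison asks which transcript changes on silencing remain when Mcl1 is in excess.

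The labels were checked on the genes they name. Through the text, 4 values of a background are in the order empty vector, Gapdh shRNA, CD28 shRNA, CD86 shRNA. MCL1 was at 51.2, 54.5, 62.7 and 49.6 FPKM in RPMI8226 and at 126.6, 131.2, 167.6 and 173.2 FPKM in the Mcl1 line. The 4 libraries of the Mcl1 line all lay above those of RPMI8226, with means of 149.6 ± 24.1 against 54.5 ± 5.82 FPKM (SD, n = 4), a ratio of 2.75. Within the Mcl1 line both silenced libraries were above both controls, and within RPMI8226 the arms overlapped. The change of MCL1 was 0.08 in RPMI8226 and 0.40 in the Mcl1 line, and the difference of 0.32 had p = 0.222 by an exact two-sided permutation of the arms within each background (0.0556 is the smallest p that its 36 assignments allow). Adjusted over the 6 such permutation tests it was 0.444. With CD86 shRNA as the only silenced library and the term for shRNA described below, whose spread then comes from the controls and 1 residual degree of freedom, the difference of MCL1 was 0.51 (SE 0.11, limma adjusted p = 0.0249).

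CD28 was at 70.6, 77.1, 56.0 and 69.9 FPKM in RPMI8226 and at 52.9, 49.7, 35.7 and 52.8 FPKM in the Mcl1 line. It was lowest under its own shRNA in both backgrounds, at 79.3% and 67.5% of the empty vector level. CD86 was at 6.92, 6.51, 11.4 and 5.28 FPKM, and at 5.80, 5.46, 12.3 and 2.86 FPKM in the Mcl1 line. Its own shRNA left 76.3% and 49.4% of the vector level, while the CD28 shRNA library was the highest of each background. GAPDH under its shRNA was at 34.3% of vector in RPMI8226 and 21.3% in the Mcl1 line, and the other 3 libraries of each background lay between 985 and 1265 FPKM. Silencing at the transcript level was thus partial in all 4 libraries, and each target kept a smaller share in the Mcl1 line than in RPMI8226.

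The libraries held 3914513 to 5900955 reads assigned to genes, and CD28 shRNA gave the shallowest library in each background. Of 9 plasma cell markers, 8 had at least 5 FPKM in all controls, and SLAMF7 was the exception. The summed level of 9 T cell markers was 3.01 to 6.72 FPKM and that of 9 stromal markers 0.329 to 0.858 FPKM, with CD3D, CD3G, CD2, COL3A1, DCN and LUM at 0 in all 8 libraries. The 9 B cell markers summed to 91.4 to 117.6 FPKM in RPMI8226 and 79.8 to 85.2 FPKM in the Mcl1 line, with BANK1 at 0. The 9 myeloid markers summed to 42.6 to 50.04 FPKM and 75.7 to 89.5 FPKM, nearly all of it CD68 (41.5 to 87.3 FPKM), with MPO at 0, and their part in the results was not tested.

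Averaged over both hairpins, most genes changed in the same direction in the 2 backgrounds, and the changes correlated with r = 0.48 across genes. No gene passed for a difference in the limma fits below. With 2 libraries against 2 in each background, that does not show that the responses were alike. Of the 6746 genes, 66.9% had a change of the same sign in both backgrounds, and the median change was -0.01 in RPMI8226 and -0.02 in the Mcl1 line. A gene is called separated where both silenced libraries lay above or both lay below both controls of a background. This held for 2375 genes in RPMI8226 (35.2%), 1179 higher (17.5%) and 1196 lower (17.7%), and for 2362 in the Mcl1 line (35%), 1018 higher (15.1%) and 1344 lower (19.9%). With 2 libraries against 2, about as many genes would separate in a background if the arms were interchangeable. These shares alone therefore show no response. In 927 genes (13.7%) both silenced libraries lay beyond both controls in the same direction in each background, 420 higher (6.23%) and 507 lower (7.52%), while 160 genes (2.37%) did so in opposite directions.

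With 1 mean per arm and background (limma, 4 residual degrees of freedom), 0 genes passed an adjusted p of 0.05 in RPMI8226 (0% of genes), in the Mcl1 line, over both backgrounds or for the difference. At an unadjusted p under 0.05 there were 343, 463, 743 and 112 genes, and the smallest adjusted p-values from limma were 0.945, 0.165, 0.165 and 1.00. Voom on the reads recovered from the FPKM values also called 0 genes in each. In this fit a gene that answers to 1 hairpin alone adds to the spread. The 343 genes at an unadjusted p under 0.05 in RPMI8226 are about as many as that threshold passes without any response.

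A second limma fit with a term for each shRNA, which the 2 backgrounds share, takes the spread from how far a construct's effect varies between backgrounds (2 residual degrees of freedom). It called 36 genes in RPMI8226 (0.534%), 4 higher (0.0593%) and 32 lower (0.474%), and 178 in the Mcl1 line (2.64%), 32 higher (0.474%) and 146 lower (2.16%). Over both backgrounds it called 509 (7.55%), 138 higher (2.05%) and 371 lower (5.5%). Of these, 309 (4.58%) were also separated in the same direction in both backgrounds, 101 higher (1.5%) and 208 lower (3.08%). For the difference between backgrounds it called 0, with 409 genes at an unadjusted p under 0.05 and voom calling 4, and the smallest adjusted p was 0.169 for CT83. Below, rose and fell refer to genes past this second fit over both backgrounds, and none of them passed the first. The second fit treats the 4 constructs as fixed, so it says nothing about other hairpins. Over both backgrounds it tests the mean of the 2 changes, which can pass with most of the change in 1 background. IRF4, for example, passed over both (limma adjusted p = 0.00759), with limma adjusted p = 0.348 in RPMI8226.

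All 36 genes called in RPMI8226 had the same sign in the Mcl1 line, where 30 of them (83.3%) were called too. Of the 178 called in the Mcl1 line, 168 had the same sign in RPMI8226, and 16.9% were called there. The 32 lower genes of RPMI8226 had a median change of -0.53 there and -0.50 in the Mcl1 line. The 146 lower genes of the Mcl1 line had medians of -0.50 there and -0.29 in RPMI8226, and its 32 higher genes 0.43 and 0.19. Each list was chosen in 1 background, so a smaller median in the other is partly the choice itself.

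Each hairpin gave a response that resembled its own in the other background, and did not resemble that of the other hairpin. Over the 6746 genes, the change under CD28 shRNA in RPMI8226 correlated with that under CD28 shRNA in the Mcl1 line with r = 0.577 (Spearman 0.531), and CD86 shRNA did so with r = 0.505 (Spearman 0.496). Crossed between hairpins and backgrounds, r was 0.01 and -0.01. Gapdh shRNA minus empty vector gave r = 0.169 between the backgrounds. These are descriptions across genes of 1 library each, and the backgrounds share no library.

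**Figure D1:**
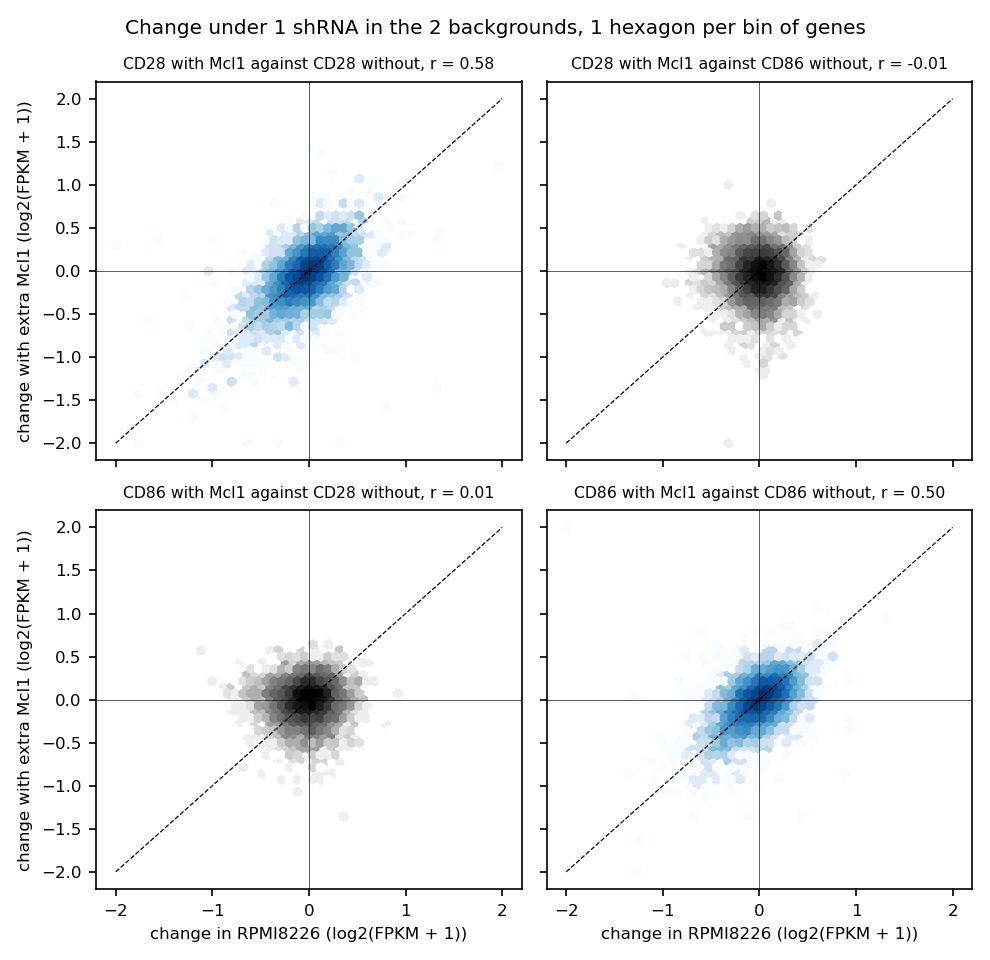
Change of 6746 genes under 1 shRNA against the mean of both controls of its background, RPMI8226 on the x axis and the Mcl1 line on the y axis, both in log2(FPKM + 1), with darker hexagons holding more genes on a log colour scale and values beyond the axes drawn at their edge. The clouds of the same hairpin in both backgrounds (blue) follow the dashed line of equal change, with r = 0.577 and 0.505, and the crossed panels (grey) show no slope.

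Under CD28 shRNA, 29 genes were lower by at least 1 log2 unit in RPMI8226. In the Mcl1 line, 27 of them were below control and 17 were again past 1 unit, with medians of -1.16 and -1.12. Chosen in the Mcl1 line instead, 53 genes were lower by that much, with a median of -1.19, and 49 were below control in RPMI8226, with a median of -0.81. CD86 shRNA gave 11 such genes in RPMI8226, of which 9 were below control in the Mcl1 line, with medians of -1.26 and -0.69. CD86 shRNA thus had fewer large falls than CD28 shRNA in both backgrounds.

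The gene with the smallest adjusted p was SLC7A5, the light chain of the LAT1 transporter that imports large neutral amino acids. It was at 83.4, 79.9, 23.6 and 63.5 FPKM in RPMI8226 and at 120.3, 123.4, 28.4 and 76.5 FPKM in the Mcl1 line. It was below both controls under either hairpin in each background, further under CD28 shRNA than under CD86 shRNA. Its change was -1.05 in RPMI8226 and -1.36 in the Mcl1 line, and over both it fell by 1.21 on the log2 scale (SE 0.04, limma adjusted p = 1.28e-05). The difference of -0.31 did not pass (adjusted p = 0.707). Its partner SLC3A2, the heavy chain of the same transporter, was at 92.7, 88.3, 71.6 and 80.7 FPKM and at 120.9, 119.8, 73.5 and 93.9 FPKM, and fell by 0.39.

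KLF2, a zinc-finger factor that FOXO proteins induce and that holds lymphocytes in quiescence, was at 6.43, 6.395, 2.60 and 1.94 FPKM in RPMI8226 and at 10.4, 7.38, 3.62 and 4.40 FPKM in the Mcl1 line. All 4 silenced libraries were below all 4 controls, and the changes of -1.19 and -0.97 differed by less than their errors (difference 0.22, SE 0.24, limma adjusted p = 0.939). Over both backgrounds KLF2 fell by 1.08 (SE 0.12, limma adjusted p = 0.00336). The other genes with the largest falls that were separated in both backgrounds were RPS6KA2, a ribosomal S6 kinase, MAL, a membrane raft protein, CRMP1, CRYBB1, LBH, TAF13, a subunit of the general factor TFIID, NTHL1, a DNA glycosylase of base excision repair, and SHQ1, an assembly factor of box H/ACA particles. Their falls over both backgrounds ranged from 0.94 for RPS6KA2 to 0.64 for SHQ1.

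For most of these the fall lay with CD28 shRNA. MAL was at 274.4, 282.9, 119.8 and 274.4 FPKM in RPMI8226 and at 145.1, 166.1, 45.7 and 118.4 FPKM in the Mcl1 line. CD28 shRNA gave the lowest library of each background, and under CD86 shRNA MAL was level with its controls in RPMI8226 and below both in the Mcl1 line. LBH, a transcriptional cofactor, started from very unlike levels, at 25.7, 25.8, 9.75 and 22.1 FPKM in RPMI8226 and at 174.2, 194.8, 80.2 and 167.4 FPKM in the Mcl1 line. Its changes of -0.76 and -0.66 were nevertheless close, with a difference of 0.10 (SE 0.10, limma adjusted p = 0.937). KLF2, CRMP1 and SHQ1 were lower under both hairpins, by 0.36 to 1.33 log2 units against their controls.

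Rises called over both backgrounds were fewer than falls (138 against 371), and smaller among the genes named. The FPKM limit was set on the controls alone, so genes falling below it stayed in and genes rising from below it stayed out. In at least 1 silenced library 283 members were under 5 FPKM, and 194 genes left out had at least 5 FPKM in all 4. By voom with the term for shRNA, 557 genes were higher and 656 lower. CD70, a TNF family ligand that signals through CD27, was at 23.1, 18.9, 33.9 and 34.1 FPKM in RPMI8226 and at 65.9, 65.0, 78.8 and 89.6 FPKM in the Mcl1 line, and rose by 0.52 (SE 0.06, limma adjusted p = 0.004). Both silenced libraries were above both controls in each background, from a higher start in the Mcl1 line. DAG1, the precursor of dystroglycan, PON2, a paraoxonase, GCHFR, a regulator of the first enzyme of tetrahydrobiopterin synthesis, CYP24A1, which inactivates vitamin D, and NR2C2AP rose by 0.67 to 0.48. HOMER2, a scaffold protein, was at 32.5, 32.2, 38.6 and 34.9 FPKM in RPMI8226 and at 10.8, 9.90, 23.8 and 15.4 FPKM in the Mcl1 line, with changes of 0.18 and 0.83 and a rise of 0.50 over both backgrounds. With CD28 shRNA alone and the term for shRNA its difference between backgrounds passed (0.88, SE 0.17, limma adjusted p = 0.00753, 1 residual degree of freedom), and over both hairpins it did not (adjusted p = 0.684). SNORD78 also passed, by 0.92, on 3 to 12 reads a library, which cannot fix its size.

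**Figure D2:**
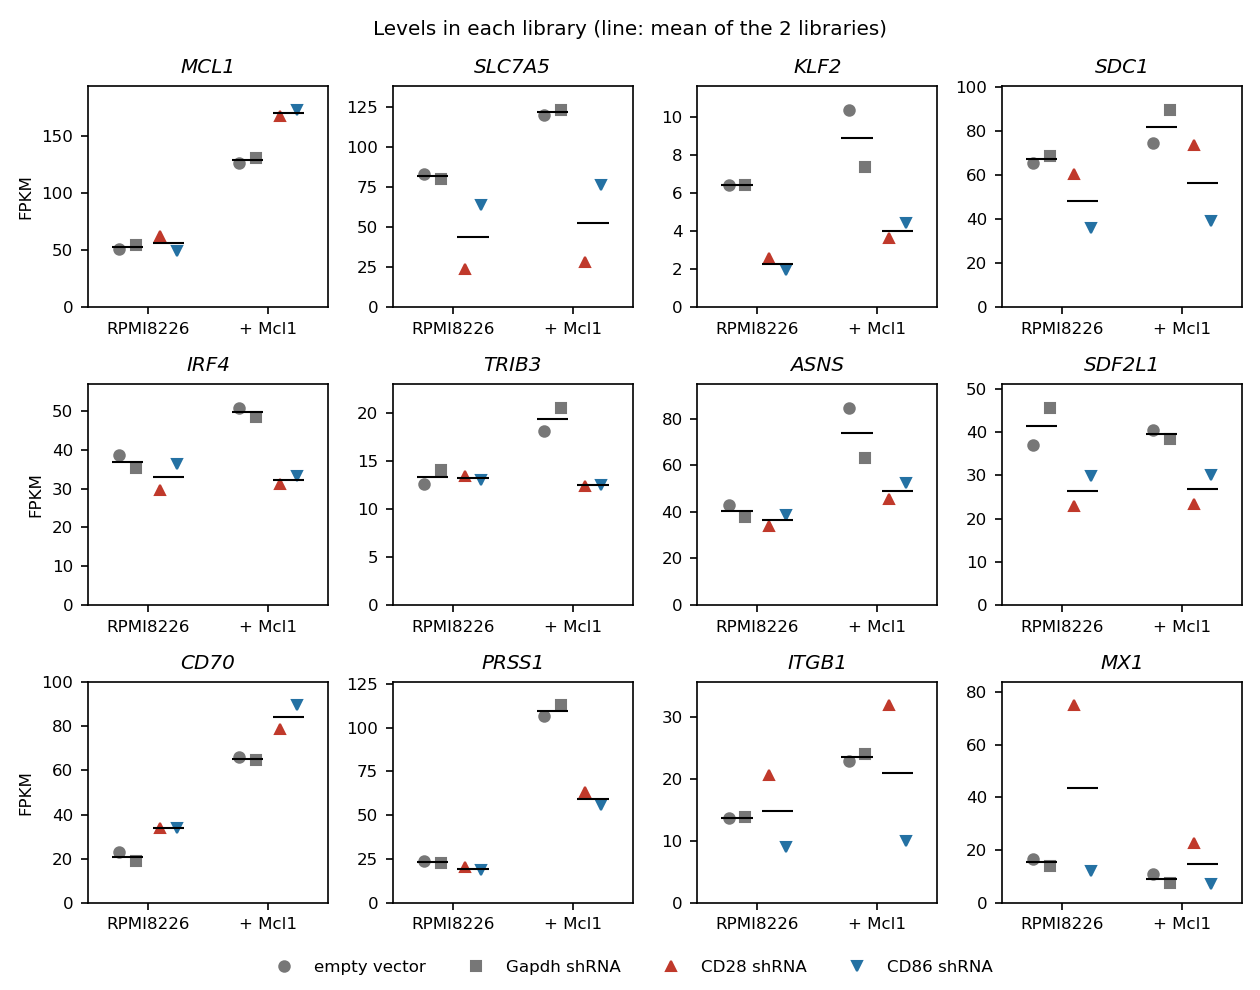
FPKM of 12 genes in each of the 8 libraries, with RPMI8226 on the left and the Mcl1 line on the right of each panel, 1 symbol per library and a black line at the mean of the 2 libraries of an arm. SLC7A5, KLF2, SDC1 and SDF2L1 were lower in the silenced arm of both backgrounds, IRF4, TRIB3, ASNS and PRSS1 mainly in the Mcl1 line, and ITGB1 and MX1 moved with 1 hairpin up and the other down or level.

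Genes of protein folding in the endoplasmic reticulum (ER) were mostly lower in both backgrounds. Plasma cells secrete large amounts of immunoglobulin, and the unfolded protein response matches their chaperones and disulfide isomerases to that load. Of the 25 genes of the unfolded protein response and ER chaperone list, all 25 tested, 23 had a change below 0 in RPMI8226 and 24 in the Mcl1 line, beside 51.7% and 55% of all genes. The median changes were -0.14 and -0.21, and 14 of 25 were more negative in the Mcl1 line, against 53.7% of all genes. The test within 1 background passed 1 lower gene in RPMI8226 and 6 in the Mcl1 line (0.474% and 2.16% of all genes), and 0 passed for the difference. As lower, 12 of 25 were separated in both backgrounds, beside 7.52% of all genes. Over both backgrounds 12 of 25 fell and 0 rose, where 5.5% of all genes fell and 2.05% rose. Both hairpins took part: under CD86 shRNA all 25 were below control in each background, with medians of -0.24 and -0.32, and under CD28 shRNA 18 and 21 were, with medians of -0.08 and -0.13. The count was 18 with CD86 shRNA alone, 7 with CD28 shRNA alone, 4 with empty vector as the only control, and 7 without either the empty vector library of RPMI8226 or the Gapdh shRNA library of the Mcl1 line.

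SDF2L1, a component of ER chaperone complexes, was at 37.0, 45.7, 22.9 and 29.8 FPKM in RPMI8226 and at 40.6, 38.4, 23.4 and 30.2 FPKM in the Mcl1 line. The levels of the 2 backgrounds nearly coincided, arm by arm, and all 4 silenced libraries lay below all 4 controls (over both, -0.59, SE 0.07, limma adjusted p = 0.004). MANF, a secreted ER stress protein, PDIA4, a disulfide isomerase, and HERPUD1, which serves ER-associated degradation, fell by 0.38, 0.30 and 0.32. HSPA5, the ER chaperone BiP, was at 337.6, 359.0, 348.4 and 301.6 FPKM and at 286.0, 316.7, 282.0 and 238.6 FPKM, a small fall of 0.16 that lay mainly with CD86 shRNA. HSP90B1 and CRELD2 fell by 0.21 and 0.34. CALR, CANX and HYOU1 did not pass, at -0.03, -0.06 and -0.08, and DNAJB9, at 0.16, was the one member above 0 in both backgrounds.

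The promoters of these genes were searched for a site known to drive chaperone genes. Its share therefore describes how the list was composed and is no test of the response to silencing. The ER stress element, CCAAT and CCACG with 9 bases between them, is the site through which ATF6 with NF-Y drives chaperone genes. It was searched on both strands from 250 bases before to 50 after the annotated start in RefSeq (GRCh38.p14), for the 23 of 25 list genes that matched a promoter. It lay in 7 of 23 (30.4%), namely CALR, CANX, CRELD2, HSP90B1, HSPA5, PDIA6 and XBP1, against 11 of 5564 matched tested genes (0.198%) and 27 of all 35116 promoters (0.0769%). Of these 7, CALR and CANX did not pass and the other 5 fell. SDF2L1, MANF and PDIA4 hold no such match in this window. A match is a description of the letters, not evidence of binding. The stretches around the match are shown for 3 members that fell, 5′ to 3′ on the gene's strand, with the element in capitals, read as its reverse complement where it lies on the other strand. They are HSPA5 at chr9:125241344-125241459 (minus strand), HSP90B1 at chr12:103930166-103930389 (plus strand, 2 matches) and CRELD2 at chr22:49918504-49918622 (plus strand).
HSPA5: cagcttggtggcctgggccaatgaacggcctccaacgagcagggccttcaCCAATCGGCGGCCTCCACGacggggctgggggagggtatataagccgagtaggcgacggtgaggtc
HSP90B1: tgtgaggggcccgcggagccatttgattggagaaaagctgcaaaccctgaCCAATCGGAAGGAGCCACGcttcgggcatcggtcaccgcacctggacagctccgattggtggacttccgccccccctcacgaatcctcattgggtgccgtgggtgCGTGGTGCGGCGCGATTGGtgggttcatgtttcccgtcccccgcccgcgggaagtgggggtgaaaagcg
CRELD2: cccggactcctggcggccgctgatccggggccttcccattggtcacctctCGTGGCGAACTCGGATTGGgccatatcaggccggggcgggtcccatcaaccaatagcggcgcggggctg

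Most plasma cell genes were lower in both backgrounds as well. Of 19 tested, 17 had a change below 0 in RPMI8226 and 18 in the Mcl1 line (51.7% and 55% of all genes), with medians of -0.21 and -0.26, and 13 of 19 were more negative in the Mcl1 line. Within 1 background 1 passed as lower in RPMI8226 and 9 did in the Mcl1 line (0.474% and 2.16% of all genes), and 0 passed for the difference. Over both, 12 fell, 7 did not pass and 0 rose (5.5% of all genes fell), and 11 were separated as lower in both backgrounds (7.52%). The list shares HERPUD1 and XBP1 with the folding list, and without them 10 of 17 fell. SDC1, the surface proteoglycan CD138 that defines plasma cells, was at 65.5, 68.7, 60.5 and 35.8 FPKM in RPMI8226 and at 74.3, 89.6, 73.7 and 39.0 FPKM in the Mcl1 line. CD86 shRNA gave the lowest library in both, at about the same level, and the changes were -0.52 and -0.59 (over both, SE 0.05, limma adjusted p = 0.00247).

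TNFRSF17, the BCMA receptor for survival ligands of plasma cells, was at 40.5, 52.2, 36.4 and 31.2 FPKM and at 28.9, 38.5, 27.8 and 19.3 FPKM, and fell by 0.47. DERL3, a plasma cell form of the ER degradation channel, fell by 0.63 (-0.59 in RPMI8226 and -0.67 in the Mcl1 line), although its control level in the Mcl1 line was far lower, at 13.3 and 11.1 FPKM against 37.5 and 36.1. FAM46C, a poly(A) polymerase often lost in myeloma, and FKBP11, an ER prolyl isomerase, fell by 0.40 and 0.39. Outside the list, ITGB7, an integrin subunit, fell by 0.35. MYC was nearly level, at 401.4, 403.3, 376.9 and 397.9 FPKM and at 361.0, 343.0, 326.4 and 374.4 FPKM (change -0.05 and -0.01, limma adjusted p over both = 0.601). JCHAIN, CD38 and IKZF1 did not pass either.

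IRF4, the transcription factor on which myeloma cells depend, was the member of the list with the most unlike changes in the 2 backgrounds. It was at 38.7, 35.2, 29.5 and 36.3 FPKM in RPMI8226 and at 50.9, 48.5, 31.2 and 33.4 FPKM in the Mcl1 line. The silenced libraries of the 2 backgrounds were at like levels, while the controls of the Mcl1 line were higher than those of RPMI8226. Its change was -0.17 with overlapping arms in RPMI8226 and -0.61 without overlap in the Mcl1 line, where it passed (limma adjusted p = 0.0137). The difference of -0.44 (SE 0.11) did not pass (adjusted p = 0.684). PRDM1, the factor BLIMP1 that works with IRF4, had -0.14 and -0.38, separated in both, and did not pass (limma adjusted p over both = 0.103).

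**Figure D3:**
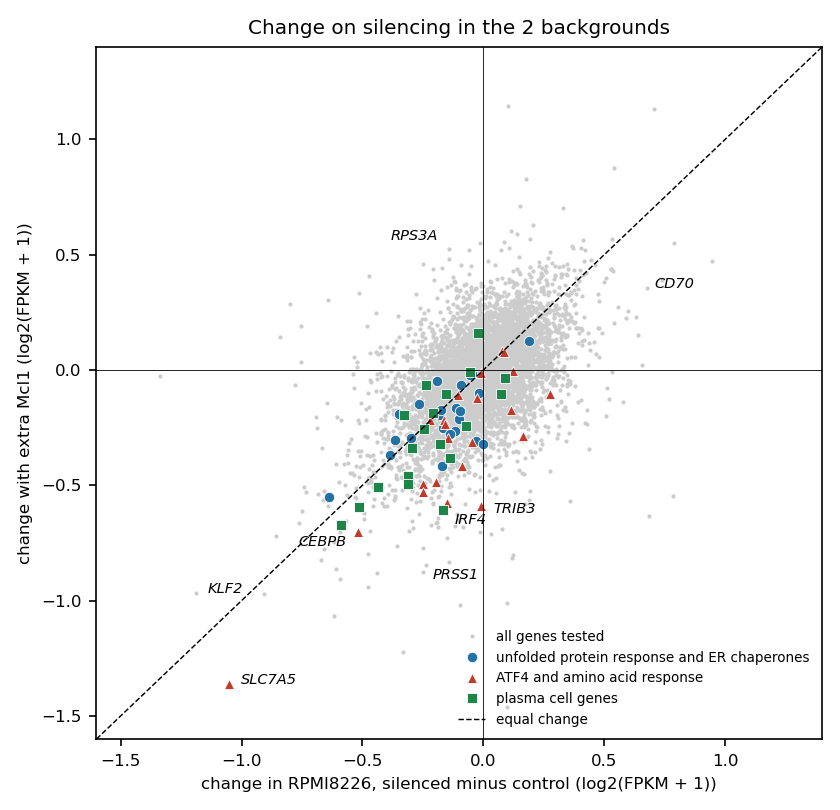
Change on silencing (mean of CD28 and CD86 shRNA minus mean of both controls, log2(FPKM + 1)) in RPMI8226 on the x axis and the Mcl1 line on the y axis, 1 point per gene of 6746 (2 lie outside the axes), with 3 lists coloured. Folding genes (blue) and plasma cell genes (green) scatter around the dashed line of equal change, while 22 of 24 amino acid response genes (red) lie below it.

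A list with a larger median change in the Mcl1 line was that of ATF4 and the amino acid response. ATF4 is the factor whose translation rises when amino acids are short, and it drives amino acid transporters, synthesis enzymes and tRNA ligases. Of 32 listed genes 24 were tested, and their median change was -0.10 in RPMI8226 and -0.29 in the Mcl1 line, a median difference of -0.21. The change was more negative in the Mcl1 line in 22 of 24, beside 53.7% of all genes. Within 1 background 7 of 24 passed as lower in the Mcl1 line (2.16% of all genes), and in RPMI8226 only SLC7A5 did (0.474%). Over both 10 of 24 fell and 0 rose, beside 5.5% and 2.05% of all genes, and for the difference 0 passed. The folding list (6 and 1) and the plasma cell list (9 and 1) had like counts in the Mcl1 line and RPMI8226. Both hairpins had the more negative median of the amino acid list in the Mcl1 line, with medians of -0.09 and -0.28 under CD28 shRNA and of -0.09 and -0.29 under CD86 shRNA in RPMI8226 and the Mcl1 line.

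The controls are subtracted in each change, so at an equal silenced level a higher control makes it more negative. With 1 derived line, a higher control level and a larger response cannot be told apart, and neither was tested. In controls 21 of the 24 genes were higher in the Mcl1 line than in RPMI8226, by a median of 0.52 log2 units, and in the silenced arm the median was 0.24. Of all 6746 genes tested, 3847 were higher in controls, with medians of 0.05 and 0.03 in the same order. ASNS, asparagine synthetase, was at 43.0, 38.0, 34.0 and 38.7 FPKM in RPMI8226 and at 84.8, 63.3, 45.6 and 52.3 FPKM in the Mcl1 line. TRIB3, a pseudokinase that ATF4 induces, was at 12.6, 14.0, 13.4 and 13.01 FPKM and at 18.1, 20.53, 12.4 and 12.5 FPKM. The silenced libraries of the Mcl1 line were at the level of all 4 RPMI8226 libraries, and its controls stood above them. CEBPG, a partner of ATF4, was at 6.86, 6.71, 8.41 and 7.08 FPKM and at 11.6, 11.3, 8.17 and 10.3 FPKM, above its controls in RPMI8226 and below them in the Mcl1 line.

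The differences were -0.43 for ASNS (SE 0.11) and -0.58 for TRIB3, and neither passed (limma adjusted p = 0.684 for each). The size of the list's difference varied with the control. Without the empty vector library of either background, the median difference was -0.08, with 19 of 24 more negative, and with empty vector as the only control it was -0.27, with 22 of 24. SESN2, a stress-induced regulator of mTORC1, is an example: its Mcl1 line controls were 18.5 FPKM with vector and 9.74 with Gapdh shRNA. MTHFD2, a mitochondrial one-carbon enzyme, was at 116.5 FPKM with vector and 57.3 with Gapdh shRNA in RPMI8226, and at 124.1 and 51.15 in the Mcl1 line, so the 2 controls differed alike in both. The count that fell over both backgrounds was 10 with vector as the only control, 6 without the Gapdh shRNA library of RPMI8226 and 4 without the vector library of the Mcl1 line.

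Among the other members, PSAT1 and PSPH of serine synthesis fell by 0.37 and 0.40, GARS and SHMT2 by 0.34 and 0.22, and CEBPB, which pairs with ATF4, by 0.61. ATF4 itself was at 204.2, 206.2, 188.6 and 178.0 FPKM and at 222.2, 206.8, 189.2 and 179.5 FPKM, and fell by 0.19 with little difference between backgrounds (-0.05, limma adjusted p = 0.955). SLC38A2, SLC1A4, ALDH18A1, PYCR1 and CBS did not pass in either background.

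**Figure D4:**
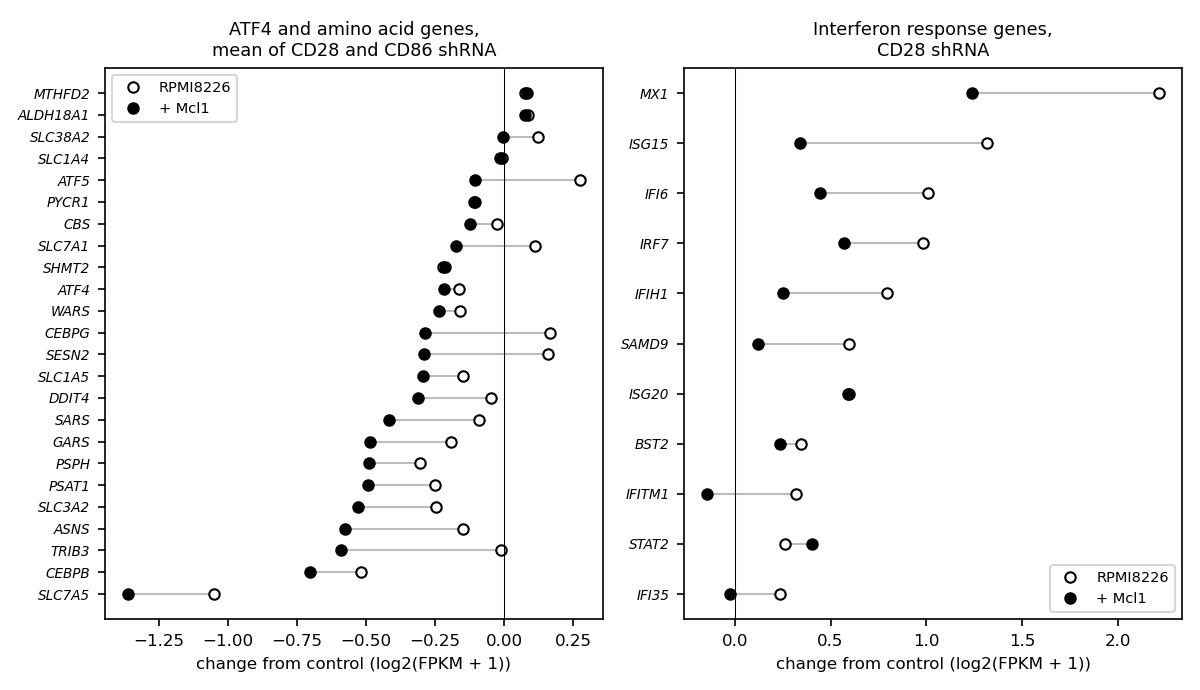
Change from control (x axis, log2(FPKM + 1)) in RPMI8226 (open) and the Mcl1 line (filled), 1 row per gene, for the 24 tested amino acid response genes as the mean of both hairpins (left) and 11 of the 12 tested interferon response genes under CD28 shRNA (right). The filled symbols lie left of the open ones in 22 of 24 and 9 of 11 genes drawn.

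The amino acid response element, TGATGNAA, is the site that ATF4 with a C/EBP partner can bind. Searched in the same way on both strands, it lay in the promoter of 7 of 21 matched list genes (33.3%), against 127 of 5564 tested genes (2.28%), 1270 of 35116 promoters (3.62%) and 1 of 23 folding genes. The ER stress element lay in 0 of 21. The 7 were ASNS, CEBPG, GARS, SLC1A4, SLC1A5, SLC3A2 and SLC7A1, of which ASNS, GARS and SLC3A2 fell over both backgrounds. SLC7A5 and TRIB3 have no match in this window. As the list was drawn up around ATF4, the share with the element describes the list and is no test of the response. Stretches around the match are shown for 3 members with unlike changes, with the element in capitals: ASNS at chr7:97872419-97872526 (minus strand), CEBPG at chr19:33374021-33374112 (plus strand) and SLC1A5, a glutamine transporter, at chr19:46784854-46784961 (minus strand).
ASNS: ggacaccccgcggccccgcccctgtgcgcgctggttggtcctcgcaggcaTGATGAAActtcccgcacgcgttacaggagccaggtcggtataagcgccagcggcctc
CEBPG: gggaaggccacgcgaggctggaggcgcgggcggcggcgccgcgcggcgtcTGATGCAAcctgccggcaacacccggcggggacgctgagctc
SLC1A5: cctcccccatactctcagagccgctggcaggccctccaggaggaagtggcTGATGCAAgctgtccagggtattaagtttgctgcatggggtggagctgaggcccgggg

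Interferon response genes were higher under CD28 shRNA in RPMI8226 and by less in the Mcl1 line, and were not higher under CD86 shRNA. Of 36 listed genes 12 were tested. Under CD28 shRNA all 12 were above control in RPMI8226 and 10 in the Mcl1 line, with medians of 0.70 and 0.37. Of all 6746 genes, 3293 and 3062 were. Under CD86 shRNA 10 of 12 were below control in each, with medians of -0.13 and -0.18, beside 3216 and 3354 of all genes. MX1, a GTPase that blocks viruses, was at 16.7, 14.1, 75.0 and 12.02 FPKM in RPMI8226 and at 10.8, 7.48, 22.6 and 7.17 FPKM in the Mcl1 line. The CD28 shRNA library was the highest of each background, by 2.22 and 1.24 log2 units above its controls. ISG15, a ubiquitin-like modifier, was at 31.8, 35.5, 85.2 and 30.6 FPKM and at 18.3, 14.8, 21.1 and 17.9 FPKM. Its CD28 shRNA library stood far above the rest in RPMI8226 and little above them in the Mcl1 line.

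Averaged over both hairpins, the list had medians of 0.32 and 0.07, and 11 of 12 genes were more negative in the Mcl1 line, against 53.7% of all genes. MX1 alone passed over both backgrounds, as higher, where 2.05% of all genes rose. With CD28 shRNA alone against both controls and 1 mean per arm, where the silenced arm is 1 library and the spread comes from the controls, 7 of 12 genes passed as higher in RPMI8226 and MX1 alone in the Mcl1 line. Of all genes 0.593% and 1.53% passed as higher in that fit. The difference of these 2 changes depended on the fit. With 1 mean per arm, 0 of the 12 passed, ISG15 having the difference with the smallest adjusted p (-0.97, SE 0.20, limma adjusted p = 0.331). With the term for shRNA, whose spread here comes from the 2 controls and 1 residual degree of freedom, ISG15 (-0.97, limma adjusted p = 0.0026), MX1 (-0.98, 0.00617) and IFI6 (-0.56, 0.0398) passed. The interferon genes started from unlike levels too: IFI6 was at 76.0 and 62.8 FPKM in controls of RPMI8226 and at 29.3 and 21.0 FPKM in those of the Mcl1 line.

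In the BCL2 family, to which Mcl1 belongs, 0 genes passed for the difference between backgrounds over both hairpins. BCL2L1, the gene of BCL-xL, another guardian of the mitochondrion, was at 84.2, 88.6, 61.9 and 92.4 FPKM in RPMI8226 and at 89.6, 91.0, 49.8 and 95.7 FPKM in the Mcl1 line. It was low under CD28 shRNA and slightly above its controls under CD86 shRNA in both, and its call over both hairpins (-0.29, limma adjusted p = 0.0286) reversed to 0.0896 with CD86 shRNA alone. BCL2 had the opposite pattern, at 15.2, 16.2, 19.7 and 11.4 FPKM and at 19.0, 17.7, 23.7 and 10.8 FPKM, highest under CD28 and lowest under CD86 shRNA in both backgrounds. It did not pass (limma adjusted p = 0.394).

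Of 11 pro-apoptotic relatives 8 had a change above 0 in each background, beside 3260 and 3034 of the 6746 genes tested. The medians of the relatives were 0.14 and 0.12, and 0 passed, where 2.05% of all genes rose. BCL2L11, the MCL1 ligand BIM, was at 27.4, 28.0, 32.4 and 34.0 FPKM in RPMI8226, without overlap, and at 33.3, 33.1, 33.3 and 40.5 FPKM in the Mcl1 line (over both, 0.20, SE 0.06, limma adjusted p = 0.0775). PMAIP1, the MCL1 ligand NOXA, was at 13.4, 11.7, 13.8 and 14.9 FPKM and at 27.4, 19.0, 28.5 and 29.7 FPKM, 0.26 over both (adjusted p = 0.0738), with the higher level in the Mcl1 line. BID, which links death receptors to mitochondria, had changes of 0.35 and 0.33 (adjusted p = 0.0587), led by CD28 shRNA. BAX and BAK1 did not pass, with -0.11 and 0.15 over both. Of 7 ubiquitin ligases, deubiquitinases and kinases that set the turnover of MCL1 protein, 0 passed, beside 7.55% of all genes over both backgrounds.

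Among the remaining lists, mitosis genes were slightly higher in both backgrounds, with medians of 0.12 and 0.09 over 22 genes. In both backgrounds 7 were separated as higher (6.23% of all genes), and CCNB2, BIRC5 and TPX2 rose over both (2.05% of all genes). Replication genes of G1/S had medians of 0.07 and -0.02, and 21 of 28 were more negative in the Mcl1 line, against 53.7% of all genes. CDC6, which loads the replicative helicase, was the 1 that fell, where 5.5% of all genes fell. Ribosomal protein genes had medians of -0.04 and 0.01, and 19 of 74 were more negative in the Mcl1 line, against 53.7% of all genes. That count was 36 without the Gapdh shRNA library of either background, with a median difference of 0.000492, and 13 without the empty vector library of either. RPS13 was the 1 that fell, against 5.5% of all genes. NFKB2, a subunit of the alternative NF-kB pathway, was at 7.42, 9.12, 16.6 and 9.09 FPKM and at 18.6, 18.9, 34.6 and 19.1 FPKM, near control under CD86 shRNA and highest under CD28 shRNA in both. TNFAIP2 rose by 0.42.

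The 23 tested genes of cholesterol synthesis had unlike medians under the 2 hairpins. Averaged over both, their medians were near 0 in each background, and IDI1, an isomerase of the isoprenoid pathway, and INSIG1, which holds the SREBP factors in the ER, fell (5.5% of all genes). Under CD28 shRNA the medians were 0.09 in RPMI8226 and 0.20 in the Mcl1 line. Under CD86 shRNA they were -0.0020 and -0.20, 12 and 20 genes were below control, and 19 of 23 were more negative in the Mcl1 line, beside 3550 of the 6746 genes tested. With both hairpins averaged 13 of 23 were, a count that became 5 without the Gapdh shRNA library of either background and 18 without the empty vector library of either.

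The 23 tested autophagy genes had medians of 0.01 and -0.01, and 2 fell and 1 rose (5.5% and 2.05% of all genes). GABARAP and MAP1LC3B, which coat the autophagosome, fell by 0.33 and 0.48, and SQSTM1, the receptor p62, rose by 0.21. DUSP5 and DUSP2, phosphatases that end MAP kinase signals, fell by 0.61 and 0.50. DUSP5 was at 46.6, 48.0, 39.6 and 21.3 FPKM and at 10.1, 8.19, 8.10 and 4.34 FPKM, lowest under CD86 shRNA in both. Of 39 respiratory chain genes 30 were below 0 in each background, with medians of -0.07 and -0.04, and 3 fell, beside 51.7% and 55% of all genes below 0 and 5.5% that fell. ITGB1, the beta-1 integrin subunit, was higher under CD28 shRNA and lower under CD86 shRNA in both backgrounds, at 13.7, 13.8, 20.6 and 9.11 FPKM and at 22.9, 24.1, 32.0 and 9.96 FPKM. The mean of both hairpins, near 0 in RPMI8226 and -0.37 in the Mcl1 line, therefore describes neither.

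**Figure D5:**
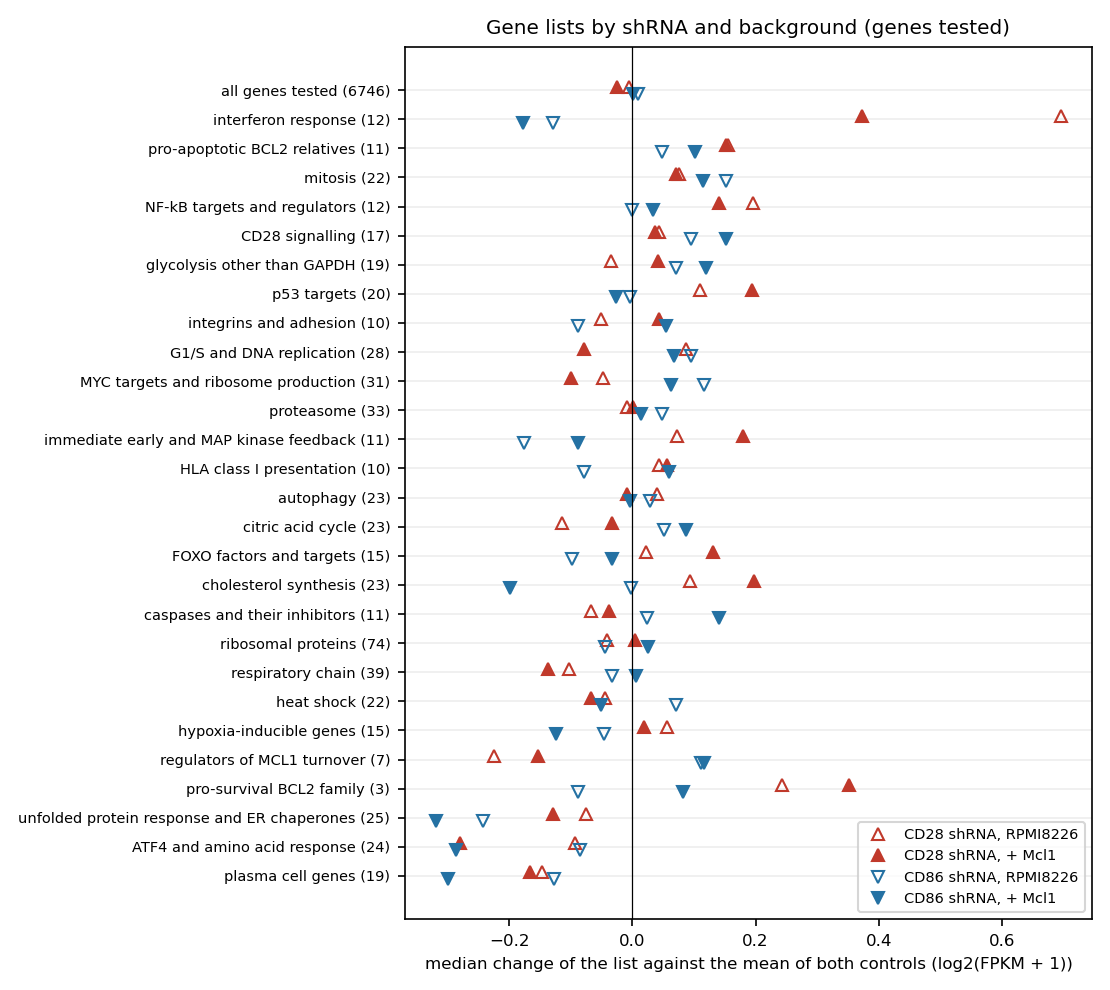
Median change of each gene list against the mean of both controls (x axis, log2(FPKM + 1)) for CD28 shRNA (red, pointing up) and CD86 shRNA (blue, pointing down), in RPMI8226 (open) and the Mcl1 line (filled), with the number of genes tested beside the list's name. Medians in RPMI8226 and the Mcl1 line were 0.70 and 0.37 for the interferon response and -0.09 and -0.28 for the amino acid response under CD28 shRNA, and -0.13 and -0.30 for the plasma cell list and -0.0020 and -0.20 for the cholesterol list under CD86 shRNA.

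Most genes nearest to a difference between backgrounds had changes of opposite sign, a form that choosing by the difference favours. None of these genes passed over both hairpins. They were taken by the smallest p for the difference with 1 mean per arm, among genes averaging 10 FPKM or more. ZCCHC9, a zinc knuckle protein, was at 17.3, 17.3, 18.4 and 21.5 FPKM in RPMI8226 and at 16.2, 17.0, 10.96 and 11.5 FPKM in the Mcl1 line, a difference of -0.72. TMEM223, THAP4, LINC00152 and PMM1, a phosphomannomutase, had differences of -0.56, -0.54, -0.52 and -0.63 of the same form, above control in RPMI8226 and below it in the Mcl1 line. C4orf48, FBXL12, NUP37, a nucleoporin, and RPS10P7 had the reverse form, with 0.95, 0.55, 0.53 and 0.88. RPS3A did as well, with 0.67, but it has many processed copies in the genome and RPS10P7 is itself a pseudogene, so reads of these may be split between copies. Limma adjusted p with the term for shRNA was 0.669 to 0.707 for the 12 genes so chosen. The 12 were chosen by their difference, so their differences with 1 hairpin of the same libraries are no separate test. Under CD86 shRNA alone RPS10P7, C4orf48 and TMEM223 had 1.22, 1.03 and -0.67. Under CD28 shRNA alone LINC00152 and RPS3A had -0.64 and 0.76. PRSS1 had -0.60 under CD28 shRNA and -0.65 under CD86 shRNA.

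PRSS1, which encodes trypsinogen, was the one in this set that fell in both backgrounds. It was at 24.2, 22.7, 20.3 and 18.7 FPKM in RPMI8226 and at 106.6, 112.8, 63.1 and 55.8 FPKM in the Mcl1 line. Silenced libraries lay below controls in each, and controls of the Mcl1 line were far higher. Its change was -0.25 in RPMI8226 and -0.88 in the Mcl1 line, and over both backgrounds it fell by 0.56 (SE 0.05, limma adjusted p = 0.00223). PRSS1 belongs to a family of near-identical trypsinogen genes, and its reads are uncertain to that extent. IGLL5, an immunoglobulin lambda-like gene, was at 309.9, 319.6, 242.0 and 193.7 FPKM and at 263.2, 258.9, 239.1 and 277.5 FPKM, lower under both hairpins in RPMI8226 and around its controls in the Mcl1 line (difference 0.52). Under CD86 shRNA alone, with 1 silenced library per background, the difference of IGLL5 was 0.79 on 1190 to 2358 reads a library. As above, a difference with 1 hairpin of the same libraries is no separate test.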

How the data were processed

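The 8 TruSeq mRNA libraries of RPMI8226 and RPMI8226 overexpressing Mcl1 were used. The authors deposited FPKM values and exon lengths for 23459 genes. The submitters' processing notes name TopHat2 2.0.13, Picard, edgeR 3.12.1 under R 3.2.2, and hg19, GRCh37 and mm9, with no step for each. Whether counting used strand is not stated, so a gene and an antisense or overlapping neighbour may share reads. FPKM times exon length gave whole reads for 100% of values (tolerance 0.02), of which 75.9% to 77.9% of low numbers were even, as where both mates count. These reads served for depth and voom. Limma 3.58.1 (R 4.3.3, eBayes with trend) was fitted on log2(FPKM + 1) over 6746 genes, two-sided, with Benjamini-Hochberg adjustment and a threshold of 0.05. The planned model has 1 mean per arm and background. The alternative adds a term for shRNA, the construct being what the labels share between backgrounds. Code was tested on simulated data. Named were a preset set, up to 10 genes per direction called over both backgrounds and separated in both, up to 6 per direction nearest to a difference, and up to 4 called members per list. As no gene passed the planned model, calls for naming came from the alternative, a choice made after seeing the data. List members named beyond these were chosen after their values were seen. Some genes taken by the rule are not reported here. Members and gene lists were chosen with earlier results of these data known.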

Additional observations from a re-analysis of the deposited data

Results flagged for a closer look

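Some genes differed between the backgrounds in their response to 1 hairpin, by an interaction in limma with Benjamini-Hochberg adjustment over 6746 genes, although 0 did so over both hairpins. All values are the change in the Mcl1 line minus that in RPMI8226, on the log2(FPKM + 1) scale, from 1 silenced library per background. With 1 mean per arm and 2 residual degrees of freedom, 4 genes passed under CD28 shRNA, namely MIR1244-2 (-2.54), SNORD44 (-2.69), SNORD87 (-2.42) and SNORA76C (-1.74), and 0 under CD86 shRNA. Each is a small RNA gene with at most 14 reads in any of the 8 libraries, which cannot fix its size. With the term for shRNA and 1 residual degree of freedom, 55 genes passed under CD28 shRNA, 18 of them small RNA genes and 24 with under 100 reads in every library, and 30 under CD86 shRNA, 8 and 17 of them in the same order. Under CD28 shRNA these held the interferon genes MX1 (-0.98), ISG15 (-0.97) and IFI6 (-0.56), with up to 1516 reads for MX1. Other genes named above that passed under CD28 shRNA were HOMER2 (0.88), RPS3A (0.76), LINC00152 (-0.64), MAL (-0.53) and SNORD78 (1.25, on 3 to 12 reads). Under CD86 shRNA they were MCL1 (0.51), IGLL5 (0.79), RPS10P7 (1.22), C4orf48 (1.03) and TMEM223 (-0.67). Passing under both hairpins were 4 genes. PRSS1 differed by -0.60 under CD28 shRNA and by -0.65 under CD86 shRNA. CT83, a cancer/testis gene with 15 to 56 reads a library, differed by -1.46 and -1.18. SNORD38A differed by -1.14 and -1.65 on 1 to 13 reads, and SNORD30 by 0.71 and -0.78, of opposite sign. In these fits the spread comes from the 2 controls of each background alone.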

How the results depend on the processing

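With 1 mean per arm, counts in RPMI8226, the Mcl1 line, for the difference and over both were 0, 0, 0 and 0. They became 4, 4, 7 and 8 with no filter on FPKM, 178, 396, 4 and 788 with CD28 shRNA alone, 49, 117, 0 and 422 with CD86 shRNA alone, and 36, 178, 0 and 509 with the replicate block, a term for shRNA. Leaving out 1 library gave 0 to 4 in the Mcl1 line (4 without its CD86 shRNA library) and 0 to 2 over both. With the term for shRNA, counts of 36, 178, 0 and 509 depended strongly on the setting. In RPMI8226 they were 5 at 1 FPKM, 73 at 20 FPKM, 8 at a mean of 5 FPKM, 0 unfiltered, 10 with vector as the only control, 625 and 430 with CD28 or CD86 shRNA alone, 507 by voom and 0 without trend. In the Mcl1 line they were 45 at 1 FPKM, 98 at a mean of 5 FPKM, 1 unfiltered, 70, 1044, 620, 643 and 3 in the same order. For the difference they were 2 with vector alone, 55 and 30 with 1 hairpin, and 4 by voom. Over both they were 324 at 1 FPKM, 1 unfiltered, 234, 1589, 1129, 1213 (557 higher, 656 lower) and 179. Without 1 library the ranges were 8 to 447, 21 to 675, 1 to 55 and 234 to 753. The lowest counts came without a control and the highest without a silenced library. Under CD86 shRNA alone the change over both turned sign for BCL2L1 (0.0896), NOLC1 (0.186), MX1 (-0.310), SELPLG (-0.0800) and SUCLA2 (0.139), and without 1 library NOLC1 ranged from -0.377 to 0.00476. The cause was not tested. Rescaling moved the median of all genes by at most 0.018. The planned edgeR fit was not run, and voom took its place. Depth limits small RNA genes and genes near 5 FPKM.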
